A study of Mus musculus with 10 samples.

Results

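The elastic fiber and microfibril genes are 10 genes that encode elastin and the glycoproteins on and around which it is laid down: Eln, Fbn1, Fbn2, Fbln5, Efemp2, Fbln1, Fbln2, Emilin1, Mfap4 and Mfap5. They were taken by gene name from the deposited table of 54532 genes, each name matched 1 gene, and all 10 were among the 20448 genes whose mean level was high enough to test. The study asked how increased pulmonary flow (IPF) after birth changes the lung. Both groups were WT C57BL/6J mice operated on at P7, and mRNA of the whole lung was sequenced at P30 from 5 mice per group. In IPF mice a needle was passed from the abdominal aorta into the inferior vena cava to make an aortocaval fistula, a lasting shunt that sends more blood through the right heart and lungs. Sham mice had the same laparotomy and exposure of the vessels without the puncture. The methods state that pups of both sexes were used.

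Elastic fibers give the airways, alveolar walls and vessels of the lung their recoil. Tropoelastin, the soluble product of Eln, is gathered on microfibrils of fibrillin, bound by fibulins that also bind the lysyl oxidases, and crosslinked into an insoluble core. In the mouse most of this core is laid down while alveoli form, by myofibroblasts of the growing septa and by smooth muscle cells and fibroblasts around vessels and airways, and elastin turns over very slowly afterwards.

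Levels are given in FPKM, reads scaled by gene length and by library, so that they can be set side by side between genes. Reads on genes, recovered from the FPKM values, ranged from 16250190 to 19026843 per IPF lung and from 15483046 to 17818542 per sham lung. The genes that mark lung epithelium and mesenchyme were present in every library, with summed levels of Sftpc, Sftpb, Sftpa1 and 5 further lung genes of 20845 to 45518 FPKM in IPF and 27428 to 42169 FPKM in sham lungs. Several features moved with the groups or with single libraries. Xist, which coats and silences the inactive X chromosome of females, lay between 26.8 and 43.2 FPKM in IPF and at most at 0.0767 FPKM in sham lungs, and the Y-linked Ddx3y had 0 reads in every IPF lung and 14.3 to 21.4 FPKM in sham lungs, so that operation and sex cannot be told apart here. The clock gene Arntl was at 3.31 to 6.85 against 0.311 to 0.452 FPKM and the clock output Dbp at 1.74 to 3.49 against 23.2 to 29.3 FPKM, and the phase of the clock cannot be told apart from the operation either. Sham replicate 1 was the lowest sham lung for 24.8% of all genes tested, and IPF replicate 5 was the lowest IPF lung for 23.7%. Because IPF replicate 5 stood apart in the elastic fiber genes themselves, results are given with and without it. It was picked out by the levels of the genes under test, so every value without it is a description and no independent evidence of a change.

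Of the 10 genes, only Eln passed the test between IPF and sham lungs, with an increase of 0.89 log2 units. Log2(FPKM + 0.1) was compared by limma, p-values were adjusted by Benjamini-Hochberg across all tested genes, and a gene passed at an adjusted p under 0.05. So 1 of 10 rose and 0 of 10 fell, where 5.85% of all genes tested passed in either direction. With a log2 fold change above 1 in size required as well, 0 of 10 passed by limma (1.14% of all genes tested), while limma voom on the recovered reads gave 0 as well. At an unadjusted limma p under 0.05, Eln and Fbn1 were higher and Efemp2 and Fbln1 lower, 4 of 10 genes where 19.5% of all genes tested met this. None of the 10 had groups that did not overlap, where 7.29% of all genes tested did. The median log2 fold change of the 10 was 0.15, with 7 values positive and 3 negative, and the median of all genes tested was 0.0016.

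**Figure D1:**
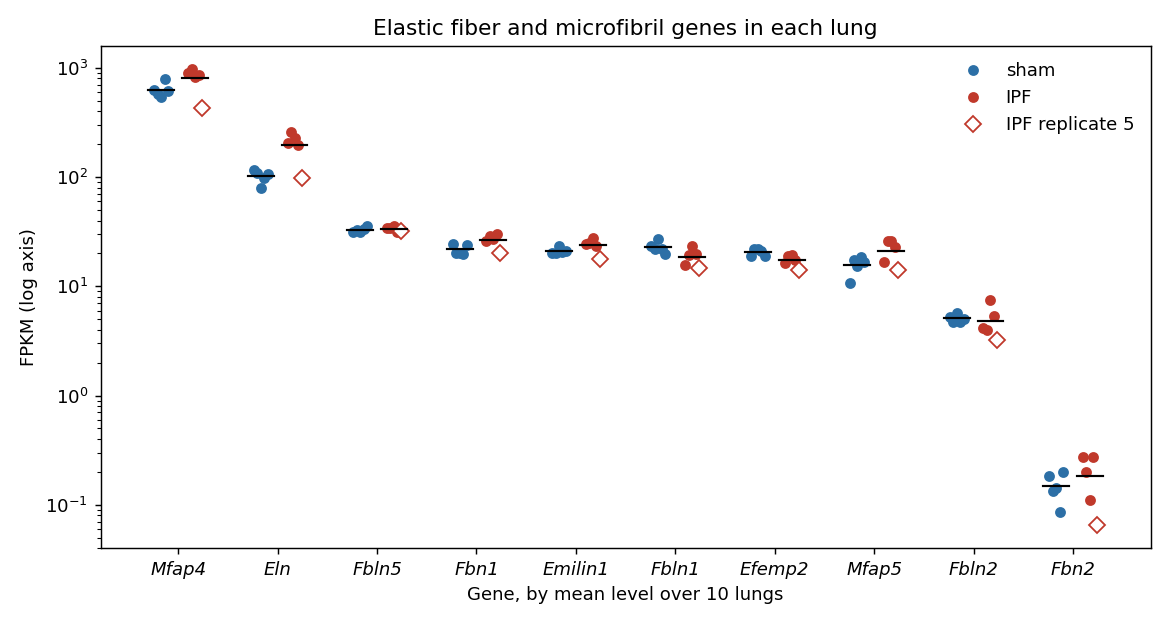
Level of each elastic fiber gene in each lung, in FPKM on a log axis, with genes in the order of their mean over 10 lungs. Points are single lungs, the open diamond is IPF replicate 5 and bars are group means. Mfap4 and Eln lie above every other gene in all lungs, and Fbn2 lies at 0.275 FPKM or below throughout.

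The genes spanned a wide range of levels. Mfap4 was the most abundant, with a mean of 715 FPKM over the 10 lungs, higher than 99.9% of the genes tested. Eln followed at 149 FPKM and Fbln5 at 33.2 FPKM, and each of these, in the order Mfap4, Eln, Fbln5, Fbn1, lay above the next in 10 of 10 lungs without overlap of their ranges. Fbn1 (24.1 FPKM), Emilin1 (22.5 FPKM), Fbln1 (20.7 FPKM), Efemp2 (18.9 FPKM) and Mfap5 (18.4 FPKM) formed a group whose neighbours changed places between lungs. Fbn1 exceeded Emilin1 in 6 of 10 lungs, Emilin1 exceeded Fbln1 in 6, Fbln1 exceeded Efemp2 in 8 and Efemp2 exceeded Mfap5 in 6. Fbln2 at 4.96 FPKM and Fbn2 at 0.167 FPKM lay below them in 10 of 10 lungs.

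Eln (ENSMUSG00000029675, GRCm38 chromosome 5, 134702593 to 134747323, minus strand) encodes tropoelastin, the monomer of the elastic core. In IPF replicates 1 to 5 its level was 206, 257, 229, 195 and 97.7 FPKM, and in sham replicates 1 to 5 it was 116, 109, 80.0, 97.5 and 106 FPKM. Replicates 1 to 4 of the IPF group lay above every sham lung, and IPF replicate 5 lay inside the sham range. The means were 197 ± 60.5 and 102 ± 13.7 FPKM (SD, n = 5 each), a difference larger than the spread between lungs by limma (log2 fold change 0.89, standard error 0.23, 95% confidence interval 0.40 to 1.39, adjusted p = 0.0408). An exact permutation test on the same log2 values gave p = 0.0317 (two-sided, where 5 against 5 can give no less than 0.00794). The fold was 1.86, with bounds of 1.32 and 2.62.

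Without IPF replicate 5, the rise of Eln was 1.13 log2 units (standard error 0.12, limma adjusted p = 0.000438), a fold of 2.19, and the coefficient of variation of the IPF group went from 30.7% to 12.5%. Without any other single lung it lay between 0.78 and 0.94 and the limma adjusted p between 0.0731 and 0.104, so Eln passed in 1 of the 10 fits that left out a lung. Over all 21 alternative settings the log2 fold change stayed between 0.78 and 1.18, and 8 of them passed.

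**Figure D2:**
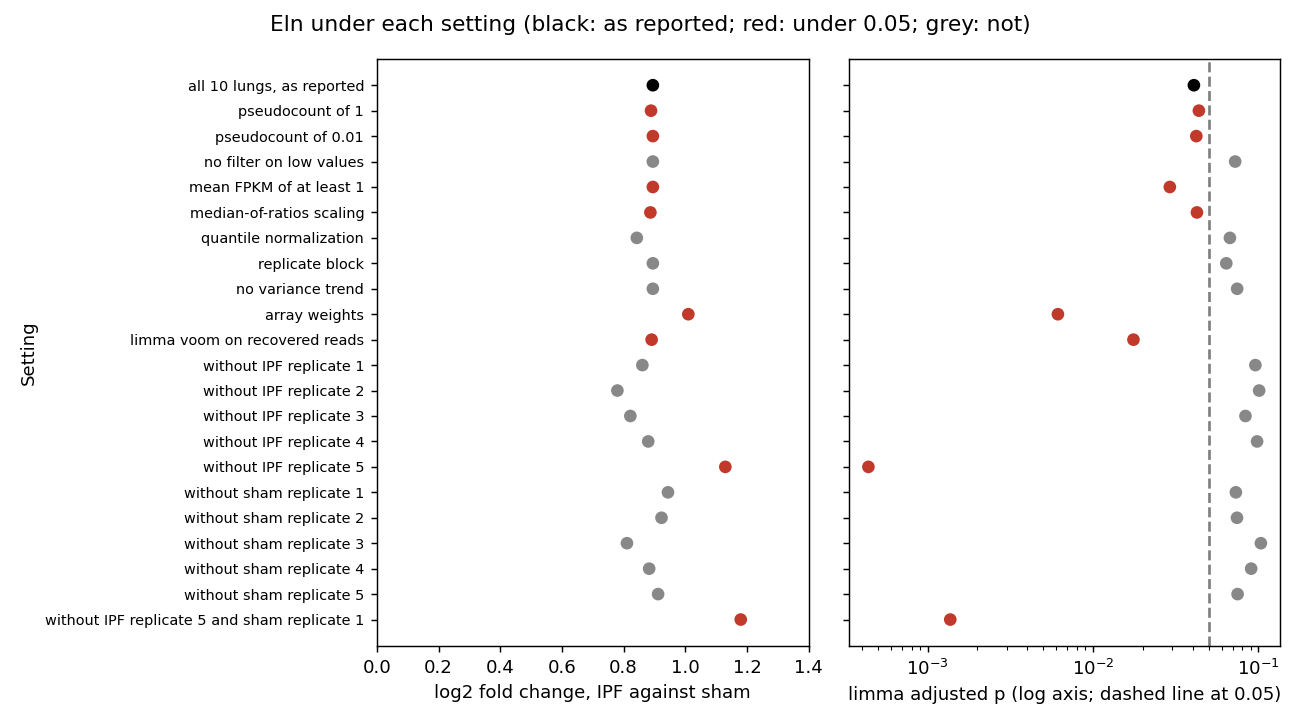
Log2 fold change of Eln, IPF against sham (left), and its limma adjusted p on a log axis (right), under each setting. The black point is the result with all 10 lungs, red points have an adjusted p under 0.05, grey points do not, and the dashed line marks 0.05. The fold change stays between 0.78 and 1.18 while the adjusted p crosses the line in both directions.

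The fibrillins form the microfibrils on which elastin is deposited, Fbn1 in adult as well as fetal tissue and Fbn2 mainly before birth. Fbn1 (ENSMUSG00000027204, chromosome 2, 125300594 to 125507993, minus strand) was at 26.0, 28.9, 27.0, 30.2 and 20.02 FPKM in IPF replicates 1 to 5 and at 24.6, 20.2, 20.1, 19.9 and 24.1 FPKM in sham replicates 1 to 5. The same 4 IPF lungs as for Eln lay above every sham lung, and IPF replicate 5 lay next to the 3 lowest sham lungs. The log2 fold change was 0.27 (standard error 0.11, 95% confidence interval 0.03 to 0.52, limma adjusted p = 0.203), and an exact permutation test gave p = 0.0635 (two-sided). Fbn1 therefore did not pass with all 10 lungs, and it passed without IPF replicate 5, when the log2 fold change was 0.37, the limma adjusted p 0.0245 and the fold 1.29.

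Fbn2 (ENSMUSG00000024598, chromosome 18, 58008623 to 58209926, minus strand) was near the lower limit of the genes tested, with 12 to 52 reads per lung. It was at 0.275, 0.200, 0.111, 0.272 and 0.0647 FPKM in the IPF lungs and at 0.185, 0.133, 0.143, 0.0859 and 0.200 FPKM in the sham lungs. Of the IPF lungs 3 lay above every sham lung, replicate 2 only just, 1 lay below every sham lung and 1 lay inside the sham range, so the IPF values lay on both sides of the sham values. Its log2 fold change was 0.14 with a standard error of 0.30 (limma adjusted p = 0.854), and the 95% confidence interval ran from -0.53 to 0.81, a fold between 0.693 and 1.75. Within a lung, Fbn2 stood at 0.00323 to 0.0105 of the Fbn1 level in IPF and at 0.00432 to 0.00832 in sham lungs.

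Fbln5 and Efemp2 encode fibulin-5 and fibulin-4, which bring tropoelastin and the lysyl oxidases together on the microfibril, and both are needed for elastic fibers to form. Fbln5 (ENSMUSG00000021186, chromosome 12, 101746565 to 101819055, minus strand) was the steadiest of the 10 genes. Its level was 34.4, 34.2, 35.6, 31.2 and 31.8 FPKM in IPF and 31.7, 32.7, 31.3, 33.3 and 36.0 FPKM in sham lungs, a coefficient of variation of 5.64% and 5.63%. The groups lay on top of each other, IPF replicate 5 included. The log2 fold change was 0.02 (standard error 0.06, limma adjusted p = 0.904), and its 95% confidence interval ran from -0.11 to 0.15, which is a fold between 0.928 and 1.11.

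Efemp2 (ENSMUSG00000024909, chromosome 19, 5473973 to 5481853, plus strand) was at 16.5, 18.9, 19.5, 17.3 and 14.1 FPKM in IPF and at 18.8, 21.9, 21.8, 21.2 and 18.8 FPKM in sham lungs. Here 3 IPF lungs lay below every sham lung and the other two lay in the lower part of the sham range. Its log2 fold change was -0.25 (standard error 0.09, 95% confidence interval -0.45 to -0.06), which did not pass over all genes (limma adjusted p = 0.137), while an exact permutation test for this gene alone gave p = 0.0476 (two-sided). Without IPF replicate 5 it was -0.18 (limma adjusted p = 0.179). Neither of these assembly fibulins passed the test.

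Fbln1 and Fbln2 encode fibulins that bind elastin and fibrillin and also basement membrane proteins, and Fbln2 is known from vessel walls. Fbln1 (ENSMUSG00000006369, chromosome 15, 85205949 to 85286535, plus strand) was at 15.6, 19.3, 23.4, 19.9 and 14.6 FPKM in IPF and at 23.5, 21.8, 27.0, 21.8 and 19.8 FPKM in sham lungs. Replicates 1, 2 and 5 of the IPF group lay below every sham lung, and IPF replicates 3 and 4 lay inside the sham range. The log2 fold change was -0.31 (standard error 0.13, limma adjusted p = 0.209), an exact permutation test gave p = 0.0794 (two-sided), and without IPF replicate 5 the change was -0.23 (limma adjusted p = 0.318).

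Fbln2 (ENSMUSG00000064080, chromosome 6, 91212455 to 91272540, plus strand) had IPF values on both sides of a narrow sham range. They were 4.13, 4.00, 7.56, 5.31 and 3.24 FPKM against 5.23, 4.74, 5.71, 4.68 and 5.06 FPKM in sham lungs. Of the IPF lungs, 3 lay below and 1 above every sham lung, and the coefficient of variation was 34.8% in IPF and 8.24% in sham lungs. The log2 fold change was -0.12 (standard error 0.19, limma adjusted p = 0.767), and without IPF replicate 5 it was 0.0022. Neither Fbln1 nor Fbln2 passed, and IPF replicate 3 was the highest IPF lung for both.

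Emilin1 encodes a glycoprotein at the interface of elastin and microfibrils that also holds back the maturation of TGF-beta in vessel walls. It (ENSMUSG00000029163, chromosome 5, 30913402 to 30921277, plus strand) was at 24.5, 25.1, 28.0, 23.3 and 17.9 FPKM in IPF and at 20.4, 20.2, 23.2, 20.7 and 21.3 FPKM in sham lungs. IPF replicates 1 to 4 again lay above every sham lung, replicate 4 only just, and IPF replicate 5 lay below every sham lung. With all lungs the log2 fold change was 0.16 (standard error 0.10, limma adjusted p = 0.448), and without IPF replicate 5 it was 0.25 (standard error 0.07, limma adjusted p = 0.0431).

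Mfap4 encodes a fibrinogen-like glycoprotein that binds elastin, fibrillin and integrins of smooth muscle cells. It (ENSMUSG00000042436, chromosome 11, 61485431 to 61488900, plus strand) was at 891, 981, 828, 866 and 432 FPKM in IPF and at 630.5, 570.4, 546, 792 and 613 FPKM in sham lungs. IPF replicates 1 to 4 lay above every sham lung and IPF replicate 5 lay below every sham lung. The log2 fold change was 0.30 (standard error 0.21, limma adjusted p = 0.479), and without IPF replicate 5 it was 0.51 (standard error 0.12, limma adjusted p = 0.0338), a fold of 1.42. Mapk7 overlaps Mfap4 on the opposite strand, and since the counting is not stated to use strand, their reads may not be separate. At most 690 reads per lung were assigned to Mapk7, beside at least 14676 to Mfap4.

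Mfap5 encodes a small glycoprotein of the microfibril. It (ENSMUSG00000030116, chromosome 6, 122505845 to 122529290, plus strand) was at 16.8, 25.9, 25.9, 22.8 and 14.02 FPKM in IPF and at 10.8, 17.6, 15.2, 18.7 and 16.7 FPKM in sham lungs. IPF replicates 2 to 4 lay above every sham lung and the others lay inside the sham range. The log2 fold change was 0.40 (standard error 0.19, limma adjusted p = 0.288), and without IPF replicate 5 it was 0.53 (limma adjusted p = 0.102). Mfap5 did not pass in either fit, although its fitted change was the largest after that of Eln.

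**Figure D3:**
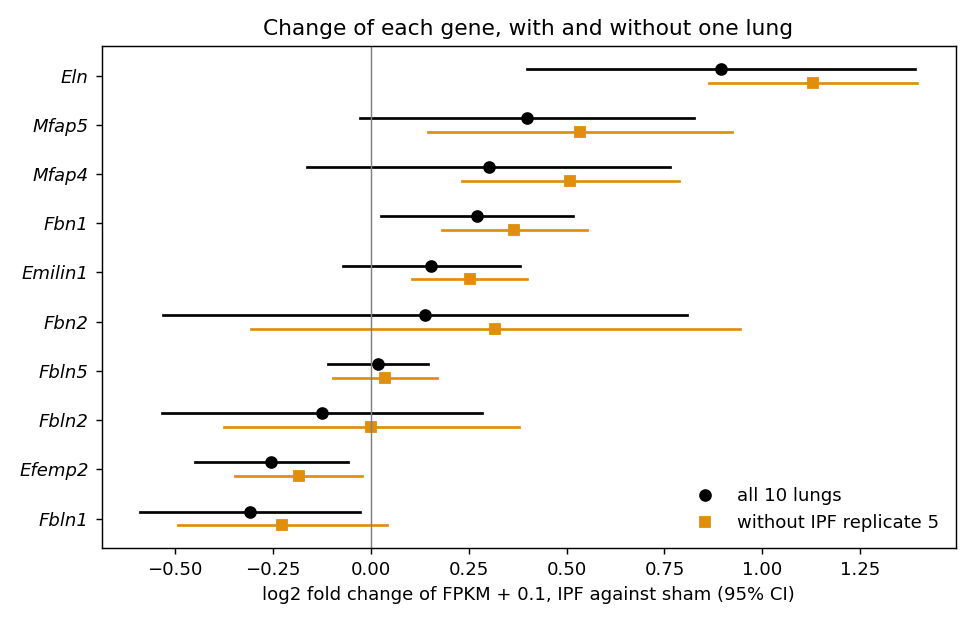
Log2 fold change of FPKM + 0.1, IPF against sham, of each elastic fiber gene with its 95% confidence interval, with all 10 lungs (black circles) and without IPF replicate 5 (orange squares). Eln has the largest value in both, 0.89 and 1.13, and Fbln5 the narrowest interval with all lungs.

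Leaving out IPF replicate 5, the lung chosen for its low values in these same genes, changed the count from 1 gene to 4, all higher in IPF. Eln, Fbn1, Emilin1 and Mfap4 passed, and none of the 10 was lower and passed, where 7.92% of all genes tested passed in either direction in that fit. The median log2 fold change of the 10 was then 0.29. These are the 4 genes for which the other 4 IPF lungs all lay above every sham lung. In the fits that left out any of the other 9 lungs, 0 of the 10 genes passed by limma, where 3.66% to 5.57% of all genes tested passed, and 2 to 4 had an unadjusted p under 0.05, where 16.9% to 19.6% of all genes tested did.

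IPF replicate 5 was the lowest IPF lung for 9 of the 10 genes, all but Fbln5, and lay above the sham mean in 0 of 10, where each other IPF lung did so in 7 or 8. The summed level of the 10 genes was 645 FPKM in it, 1212 to 1395 FPKM in the other IPF lungs and 771 to 1029.8 FPKM in sham lungs, so it lay below every other lung. Mfap4 made up 66.9% to 76.9% of this sum in every lung. The share taken by Eln was 15.1% in IPF replicate 5, 16.1% to 18.7% in the other IPF lungs and 9.47% to 13.3% in sham lungs, so the share in IPF replicate 5 lay above that in every sham lung although the sum was the lowest of all.

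**Figure D4:**
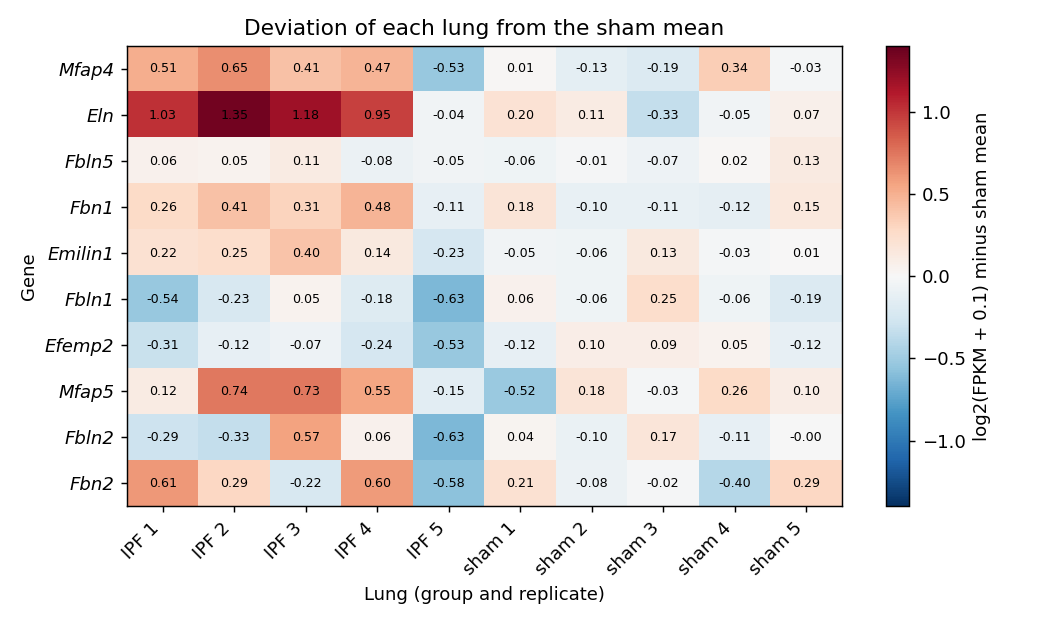
Deviation of each lung from the sham mean, as a difference of log2(FPKM + 0.1), for each elastic fiber gene (vertical) and each lung (horizontal). Red is above and blue below the sham mean. The column of IPF replicate 5 is below the sham mean in every gene, with -0.53 for Mfap4, -0.63 for Fbln1 and -0.04 for Eln.

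Markers of other cells moved with the same library and with the groups. The summed level of 8 fibroblast genes (Pdgfra, Pdgfrb, Col1a1 and others) was 473 FPKM in IPF replicate 5, 581 to 682 FPKM in the other IPF lungs and 602 to 755 FPKM in sham lungs. Within that list, Col1a1 and Col3a1 were lowest in IPF replicate 5, at 57.6 and 97.9 FPKM, while Pdgfra was highest there, at 60.7 FPKM. The leukocyte sum (Ptprc, Cd3e, Cd79a and 5 others) was 111 FPKM in IPF replicate 5, 49.1 to 62.1 FPKM in the other IPF lungs and 25.2 to 46.3 FPKM in sham lungs, and the neutrophil gene S100a8 made up 78.9 FPKM of it in IPF replicate 5. Without S100a8 the sum was 32.1 FPKM there, below the other IPF lungs (34.8 to 41.6 FPKM) and above the sham lungs (22.0 to 28.1 FPKM). The sums of alveolar fibroblast and endothelial genes were the highest of all 10 lungs in IPF replicate 5, at 2199 and 1421 FPKM. Inmt alone made up 1273 FPKM of the alveolar fibroblast sum there. Within that list Inmt and Tcf21 (81.3 FPKM) were the highest of all lungs in IPF replicate 5, and Slc7a10 (11.1 FPKM) was the lowest. In a bulk lung, fewer cells of a type and less RNA per cell cannot be told apart, and the part of these cells in the low values of IPF replicate 5 was not tested.

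Among the cells that make elastic fibers, the summed marker levels of the groups overlapped. For smooth muscle (Acta2, Myh11, Tagln and 5 others) the sum was 123 to 246 FPKM in IPF and 149 to 189.8 FPKM in sham lungs, with 1 of 8 genes (Synpo2) passing, higher in IPF. The fitted change of 5 of the 8 was negative (median -0.10), with 1 lower at an unadjusted p under 0.05 and values of -0.78 for Actg2, -0.65 for Cnn1, -0.35 for Myh11 and -0.14 for Acta2, none of which passed. For myofibroblasts (Aspn, Hhip, Lgr6 and 5 others) it was 58.9 to 72.5 and 55.7 to 63.8 FPKM, with 1 of 7 tested genes (Fgf18) higher, and without IPF replicate 5 a further gene passed, Igf1 (log2 fold change 0.73, limma adjusted p = 0.0191). None of the 8 adventitial fibroblast genes (Pi16, Col14a1, Dpt and 5 others) passed by limma or limma voom, 1 was lower at an unadjusted p under 0.05, and their sums were 304 to 442 and 308 to 386 FPKM. Of the alveolar fibroblast genes (Npnt, Ces1d, Slc7a10 and 5 others) 1 of 8 (Gyg) was higher, with sums of 1826 to 2199 and 1407 to 1993 FPKM. Inmt made up 917 to 1273 FPKM of this sum in IPF and 538 to 1132 FPKM in sham lungs. Without Inmt the sums were apart, higher in IPF, and with Gyg left out as well they overlapped. In the fibroblast list Pdgfra and Lum rose by 0.35 and 1.09 log2 units and Col6a1 fell by 0.37 log2 units (limma adjusted p = 0.0212, 0.0415 and 0.0247), and limma voom called Col6a2 lower as well.

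The groups were apart in the sums of endothelial genes (Pecam1, Cdh5, Cldn5 and 5 others), at 1263 to 1421 FPKM in IPF and 1099.6 to 1164 FPKM in sham lungs, and of leukocyte genes, where 3 of 8 passed, all higher in IPF. Of the endothelial genes 1 of 8 passed by limma, Cldn5, which rose by 0.56 log2 units, and limma voom called Cldn5 and Tek higher. The fitted change was positive in 6 of the 8 (median 0.18), and 4 were higher at an unadjusted limma p under 0.05. Without Cldn5 the endothelial sums overlapped, at 830.3 to 974 FPKM in IPF and 791 to 862 FPKM in sham lungs. Of the pericyte genes 1 of 8 passed and was lower (1 higher and 1 lower at an unadjusted limma p under 0.05), and 5 of 8 fitted changes were positive. Of the mesothelial and ciliated airway cell genes 0 of 8 each passed by limma or limma voom (1 lower and 0 at an unadjusted limma p under 0.05). The fitted change was positive in 7 of 8 mesothelial genes (median 0.19) and negative in 7 of 8 ciliated airway cell genes (median -0.34). Cartilage genes, which mark the walls of large airways, had 2 of 8 tested and a sum of at most 1.195 FPKM. Heart muscle (7 tested), fat (5 tested) and the lung genes named above had 0 that passed by limma and 0 at an unadjusted p under 0.05, while limma voom called 1 lung gene, Sftpb, lower. Their median log2 fold changes were 0.35 for heart muscle, 0.73 for fat and -0.016 for the lung genes. The part of any of these cells in the rise of Eln was not tested.

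The level of Eln was also set against that of other members within each lung. These ratios were chosen after the levels were seen and are given without a test. Eln stood at 5.97, 7.54, 6.43, 6.26 and 3.07 times the level of Fbln5 in IPF replicates 1 to 5 and at 2.56 to 3.64 times in sham lungs, so 4 of 5 IPF lungs lay above every sham lung. Relative to Fbn1, Eln was at 4.88 to 8.91 in IPF and 3.98 to 5.40 in sham lungs, again with IPF replicate 5 inside the sham range. Relative to Efemp2 and to Mfap4 all 5 IPF lungs lay above every sham lung, IPF replicate 5 included. In that lung Eln itself was inside the sham range (97.7 FPKM), while Efemp2 (14.1 FPKM) and Mfap4 (432 FPKM) were the lowest of all lungs. The ratio to Efemp2 was 6.92 to 13.6 in IPF and 3.67 to 6.14 in sham lungs, and that to Mfap4 was 0.225 to 0.277 and 0.123 to 0.191.

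**Figure D5:**
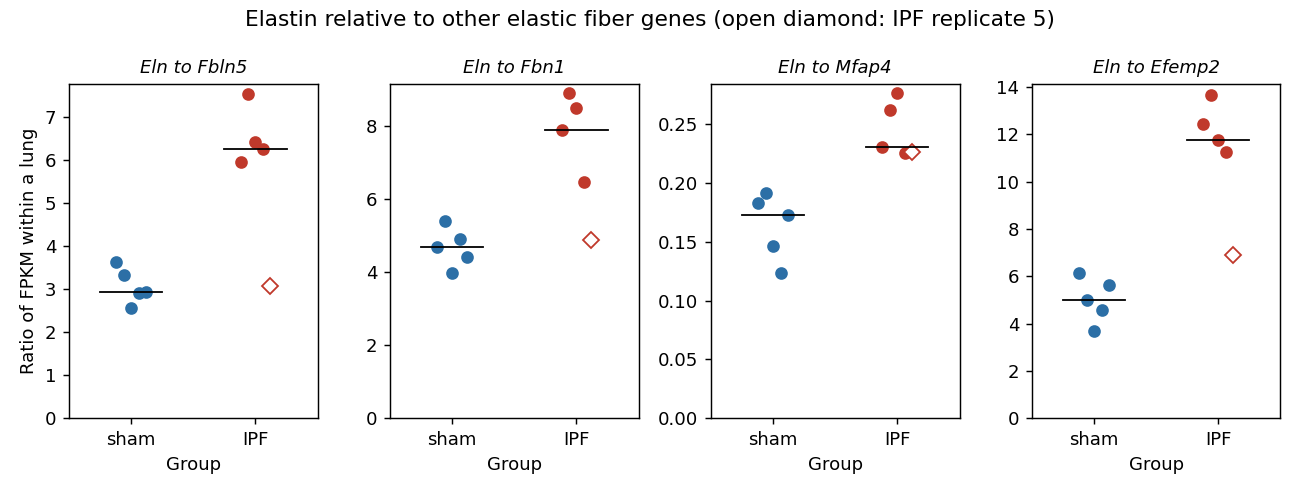
Ratio of the FPKM of Eln to that of Fbln5, Fbn1, Mfap4 and Efemp2 within each lung, in sham and IPF. Points are lungs, bars are medians and the open diamond is IPF replicate 5, which lies among the sham lungs for Fbln5 and Fbn1 and above them for Mfap4 and Efemp2.

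Promoters of some members were looked at in the RefSeq promoter table, 300 bases from 250 before to 50 after each start in GRCm38.p6. The search covered 10 promoters of 6 of the 10 genes (Efemp2, Emilin1, Fbln1, Fbln2, Fbln5 and Fbn1). No promoter of Eln, Fbn2, Mfap4 or Mfap5 was searched, so the counts below do not speak for these genes. Both strands were searched for 5 short motifs, each counted by itself even where it shares bases with another. A pair of Efemp2 windows and the pair of Fbln1 windows share most of their bases, so the 10 are not independent and some matches are counted more than once. The GC box GGGCGG, the site of Sp1-like factors, was in 7 of the 10 promoters, of 5 genes, and in 35.7% of all 32851 promoters in the table. The CAGA box CAGACA, a site of Smad factors, was in 4 promoters, of Emilin1, Fbln1 and Fbln5 (21.0% of all promoters), and the E-box CACGTG, which clock factors bind, in both promoters of Fbln1 and no other (7.15%). The TATA box TATAAA (13.6% of all) and the AP-1 site TGANTCA (7.81% of all) were in none of the 10 windows. The GC content was 48.7% to 78.3%, where the median of all promoters was 52.7%. A match is a description of the letters and does not show that a factor binds there.

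The promoters of Fbn1 and Emilin1 are shown because these genes did not pass with all lungs, passed without IPF replicate 5 and lay above every sham lung in the same 4 IPF lungs. For Fbn1 (chr2:125506389-125506688, minus strand) the capitals mark the GC box, which begins at -185 from the start, and for Emilin1 (chr5:30913536-30913835, plus strand) they mark the CAGA box, which begins at -129. Both windows lie inside the gene positions given above, so the start used here is not the outer start of the gene given there.
Fbn1: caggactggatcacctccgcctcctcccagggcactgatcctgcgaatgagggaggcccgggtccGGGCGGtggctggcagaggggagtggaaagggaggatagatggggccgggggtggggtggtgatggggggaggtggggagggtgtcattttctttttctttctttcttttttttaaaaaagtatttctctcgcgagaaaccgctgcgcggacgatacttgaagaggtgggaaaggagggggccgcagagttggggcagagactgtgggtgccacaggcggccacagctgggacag
Emilin1: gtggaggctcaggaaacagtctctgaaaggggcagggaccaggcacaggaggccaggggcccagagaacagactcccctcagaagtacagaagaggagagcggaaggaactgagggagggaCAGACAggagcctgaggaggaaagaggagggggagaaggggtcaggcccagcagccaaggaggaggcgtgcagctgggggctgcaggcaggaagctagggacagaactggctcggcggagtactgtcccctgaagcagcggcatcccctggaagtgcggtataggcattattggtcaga

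The rest of the elastic fiber pathway was followed in 70 further genes in 7 lists by role, of which 68 could be tested. In all 2 rose, 3 fell and 63 did not pass (median log2 fold change 0.04), where 5.85% of all genes tested passed. Those that rose were Emilin2 and Svep1, and those that fell were Vcan, Timp3 and Itga9. The groups did not overlap for any of these 5 genes, which were picked because they passed. Over all 68 the groups did not overlap for 8 (11.8%, beside 7.29% of all genes tested), the further 3 being Mmp9, Timp4 and Loxl3, which did not pass by limma. Limma voom on the recovered reads called Timp4 lower.

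Emilin2, a relative of Emilin1, was at 1.98 to 2.90 FPKM in IPF and 0.873 to 1.79 FPKM in sham lungs (log2 fold change 0.85, limma adjusted p = 0.0216). Svep1, a large extracellular matrix protein of the vasculature that binds integrin alpha-9, was at 7.95 to 10.3 against 6.03 to 7.49 FPKM (log2 fold change 0.44, limma adjusted p = 0.0137). Itga9, the integrin subunit itself, fell by 0.43 log2 units, with 19.6 to 25.1 FPKM in IPF and 26.8 to 33.0 FPKM in sham lungs (limma adjusted p = 0.0120). The ligand and its receptor subunit thus moved in opposite directions in the same lungs. Vcan, the proteoglycan versican, fell by 0.86 log2 units, with 0.543 to 1.29 FPKM in IPF and 1.31 to 1.95 FPKM in sham lungs (limma adjusted p = 0.0322). Timp3, an inhibitor of metalloproteinases that is held in the matrix, fell by 0.84 log2 units, with 46.9 to 86.2 FPKM in IPF and 92.7 to 135 FPKM in sham lungs (limma adjusted p = 0.0137). When each lung was left out in turn, Svep1, Timp3 and Itga9 passed in 10 of 10 fits, Emilin2 in 7 and Vcan in 4.

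By role, the 24 assembly and associated glycoproteins (23 tested) had 2 higher and 1 lower that passed, the 7 protease inhibitors 1 lower (Timp3), and the 11 receptors 1 lower (Itga9). At an unadjusted limma p under 0.05, 3 receptors were higher and 1 lower, and without IPF replicate 5 the integrin subunit Itgb6 passed as well, higher in IPF (log2 fold change 0.62, limma adjusted p = 0.0126). None of the 5 crosslinking enzymes passed by limma or by limma voom on the recovered reads (1 higher and 2 lower at an unadjusted limma p under 0.05), and the smallest adjusted p was that of the lysyl oxidase Loxl4 (log2 fold change -0.52, limma adjusted p = 0.0740). The fitted change was negative in 3 of the 5 enzymes (median -0.11). Their summed level was 118 to 131 FPKM in IPF and 84.2 to 106 FPKM in sham lungs, without overlap, but Lox and Loxl1 made up most of it, and without either of them the sums overlapped. Without IPF replicate 5, Loxl1 passed (log2 fold change 0.71, limma adjusted p = 0.00153), and with all lungs it did not (0.53, limma adjusted p = 0.129). Of 10 elastin-degrading proteases tested, 0 passed by limma or limma voom with all lungs (2 higher at an unadjusted limma p under 0.05). The fitted change was positive in 9 of these proteases and negative in 1 (median 0.097). Mmp9, a gelatinase of neutrophils and macrophages, had the smallest adjusted p (log2 fold change 0.98, limma adjusted p = 0.09995). Mmp9 was highest in IPF replicate 5, at 6.16 FPKM, the lung with the highest S100a8, and the part of neutrophils in its level was not tested. The 4 latent TGF-beta binding proteins, which sit on fibrillin microfibrils, had none that passed by limma or limma voom (1 higher and 1 lower at an unadjusted p), with Ltbp4 at -0.23 (limma adjusted p = 0.120). The 8 other genes of cutis laxa, an inherited disease of elastic tissue, had none either (1 higher and 1 lower at an unadjusted p), with the glucose transporter Slc2a10 at -0.28 (limma adjusted p = 0.125). Across the 7 lists 13 genes were higher and 9 lower at an unadjusted limma p under 0.05, together 32.4% of those tested, beside 19.5% of all genes tested.

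The genes whose levels were most like Eln from lung to lung, once each group mean was taken away, were Mir186, Igf1, Gm22307, Mrc2 and Dtx4, by Pearson r among 13444 genes with a mean of at least 1 FPKM over the 10 lungs. They were picked as the highest of all, and IPF replicate 5 and sham replicate 3 lie farthest from the median in Eln, so r is given as a description. It was 0.961 for Igf1, an insulin-like growth factor that is also in the myofibroblast list, with a Spearman rho of 0.745, and 0.656 without these 2 lungs. It was 0.947 for the collagen receptor Mrc2 (rho 0.903, and 0.707 without them) and 0.946 for Dtx4 (rho 0.806, and 0.664 without them), a gene that itself rose by 1.22 log2 units (limma adjusted p = 0.000356). Mir186 and Gm22307, with r of 0.964 and 0.947, had only 1 to 21 and 0 to 6 reads per lung. All of these points come from the same libraries.

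Among the 10 genes, Eln and Mfap4 were each other's closest by the same measure (r = 0.863, rho = 0.552), and r was 0.18 without the 2 lungs farthest in Eln (IPF replicate 5 and sham replicate 3) and 0.309 without the 2 farthest in Mfap4 (IPF replicates 2 and 5). Efemp2 and Mfap5 were also each other's closest (r = 0.829, rho = 0.830), and r was 0.892 without the 2 lungs farthest from the median in Efemp2 (IPF replicate 5 and sham replicate 5) but 0.609 without the 2 farthest in Mfap5 (IPF replicate 5 and sham replicate 1). Fbln1 and Fbln2 were another such pair (r = 0.838, rho = 0.758), at 0.597 without IPF replicates 3 and 5. Fbn1 was closest to Eln (r = 0.816, rho = 0.552, and r = 0.649 without the 2 farthest lungs). Fbn2 was closest to Fbn1 (r = 0.788, rho = 0.733, and r = 0.474 without them) and Emilin1 to Efemp2 (r = 0.807, rho = 0.576, and r = 0.346 without them). Fbln5 was closest to Eln, with r = 0.484 and rho = 0.552, and with r = 0.672 without its 2 farthest lungs.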

How the data were processed

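mRNA of whole lungs was sequenced from 5 IPF and 5 sham mice. By the methods, the authors cleaned the reads with Fastp, mapped them with HISAT2 and quantified genes with StringTie, and deposited 1 FPKM value per gene and lung. The gene positions are those of GRCm38, although the methods name GRCm39. The sample records name another mapper than the methods do, and which one made the values is not known. The methods and the sample records also name different library kits, so strand is not known. The product of FPKM and gene length came in whole steps of 1 read (tolerance 0.05) for 100.0% of values, which gave the reads behind each. All value columns were mapped to a sample.

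The test was limma 3.58.1 (R 4.3.3) with trended variances and no covariate, on log2(FPKM + 0.1) of genes whose mean FPKM reached 0.1, and p-values were adjusted by Benjamini-Hochberg over these genes. Fold changes on this scale understate the change of low genes. Exact permutation tests were two-sided over all assignments of 5 of 10 lungs. P-values cover the spread between these mice. Tables were made with Python 3.11.15, pandas 2.3.3, numpy 2.4.6 and scipy 1.17.1. The test of counts that the methods name was not run, and voom on recovered reads was an alternative.

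The members and all gene lists were chosen with earlier results of these data known. Named are the 10 members, of each role list the genes that passed or else the 1 with the smallest adjusted p, the 5 genes most like Eln, the closest member of each member, and up to 3 markers per list. Others named beside these (such as Lum, Gyg or S100a8) were chosen after their values were seen. Lungs with the same replicate number did not deviate together. The alternatives changed the pseudocount (1 or 0.01), the filter (none, or a mean FPKM of 1), the scaling (median of ratios or quantile) and the model (replicate block, untrended variances, array weights, or voom on recovered reads), or left out each lung. Leaving out IPF replicate 5 and sham replicate 1 together was chosen after seeing the data.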

Additional observations from a re-analysis of the deposited data

Results flagged for a closer look

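Dixon's criterion for a sample far from the others was applied to each group of 5 lungs for the 10 members and the 9 role genes named, 38 groups in all, and chance marks about 1 in 20. It marked 2. Mfap4 in IPF replicate 5 was at 432 FPKM, and the other IPF lungs lay between 828 and 981 FPKM. Loxl4, a lysyl oxidase, was at 1.66 FPKM in sham replicate 1, and the other sham lungs lay between 1.06 and 1.19 FPKM. Eln in IPF replicate 5 was not marked.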

How the results depend on the processing

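Eln, the 1 member that passed, rested on settings and lungs: its limma adjusted p was 0.0724 with no filter on low values, 0.0673 with quantile normalization, 0.0744 with no variance trend and 0.0640 with the replicate block, and 0 members passed under the first 3 of these. With array weights 2 members passed (Eln and Fbn1), 1 of them with a log2 fold change above 1 in size, and so did 12 of the other elastic fiber genes, where 1749 of all genes (8.55%) passed. Leaving out each lung gave 0 to 4 members passing (4 without IPF replicate 5) and 0 to 1 with both limits, 748 to 1619 of all genes, where 1196 passed with all lungs, and 3 to 7 of the other elastic fiber genes, where 5 did. The lowest counts of all genes came without IPF replicate 4 (748), IPF replicate 2 (788) and sham replicate 3 (797), and the lowest of the other elastic fiber genes without sham replicate 1 (3). Leaving out IPF replicate 5 and sham replicate 1 together, chosen after seeing the data, gave 2 members (Eln and Fbn1), 1 with both limits, and 1452 of all genes (7.10%). The causes were not tested. The replicate numbers did not pair the lungs (correlations of -0.02 to 0.095), and with the replicate block 1 member passed, which was Efemp2 (limma adjusted p = 0.0457) and not Eln, with 1045 of all genes, while Mmp9 passed (0.0476) and Vcan did not (0.0840). The sign of the log2 fold change turned for Fbln2 without IPF replicate 5 (0.00218) and without both lungs (0.0131), and for Fbln5 with quantile normalization (-0.0196), without IPF replicate 3 (-0.00499) and without sham replicate 3 (-0.000389). Over the fits that left out a lung, it lay between -0.297 and 0.00218 for Fbln2 and between -0.00499 and 0.0501 for Fbln5, and neither gene passed in any. Of 209 comparisons of a member with its value under an alternative, 185 kept direction and side of the threshold, 13 lost and 6 gained a call and 5 turned. For the 9 named role genes 171 of 189 kept both, 13 lost and 5 gained a call. Fbn2 rested on 12 to 52 reads per lung, and the part of counting error in its spread was not tested.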
